A study of Homo sapiens with 8 samples.

Results

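Genes of 12 developmental transcription factor families that the files list were followed in HT and SUDHL6, established human diffuse large B cell lymphoma lines, after treatment with iEZH, a compound that the series title presents as inhibiting the PRC2 complex. The members were rows whose symbol begins with HOXA to HOXD, SOX, FOX with a further letter, GATA, TBX, IRX, MEIS, PBX, LHX, ZIC or the letters of SIX4 and SIX5, followed by a digit, with 1 FOX gene left out by the rule, whatever their level. They came to 58 of the 14410 symbols in either table, 48 of 13700 rows in HT and 43 of 13036 in SUDHL6, and 33 had a row in both. GATA and ZIC genes, HOXC genes of HT, and HOXD and IRX genes of SUDHL6 have no row in these tables and were not analysed here. The measure throughout is FPKM, fragments per kilobase of transcript scaled to the mapped reads, so levels are per length and can be set beside each other between genes.

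RNA was sequenced in 4 groups of 2 libraries: HT cells with iEZH and HT cells with DMSO, the solvent, and SUDHL6 cells with iEZH and SUDHL6 cells with DMSO. All were taken after 96 hours (day 4) from cultures in serum-supplemented RPMI GlutaMAX with penicillin/streptomycin. The labels do not say whether libraries of a group came from separate cultures, so p-values measure only the spread between these libraries, and the dose of iEZH is not given in the sources used here. HT had 72385330 to 81858662 reads per library and SUDHL6 59563321 to 94821806. All 8 B cell markers looked up had a row in both lines, with a summed level of 2251 to 2353 FPKM in iEZH and 2002 to 2049 FPKM in DMSO libraries of HT, and 3721 to 4375 FPKM in iEZH and 3580 to 3643 FPKM in DMSO libraries of SUDHL6. Epithelial and embryonic stem cell markers had no row in either table. Of 6 stromal markers DCN and LUM had an HT row, with a sum of 3.79 to 5.43 FPKM in iEZH and 3.27 to 3.58 FPKM in DMSO libraries, and 0 had a SUDHL6 row. Of 6 myeloid markers 4 had an HT row, with a sum of 71.1 to 74.5 FPKM in iEZH and 60.6 to 67.6 FPKM in DMSO libraries, most of it CD33, and 2 had a SUDHL6 row (2.14 to 2.52 FPKM in iEZH and 2.11 to 2.36 FPKM in DMSO libraries). The part of these markers in the results was not tested. In bulk RNA, a change in the number of cells that express a gene and a change in RNA per cell cannot be told apart.

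PRC2 is the Polycomb complex whose catalytic subunit EZH2, or its paralog EZH1, methylates lysine 27 of histone H3, a mark of silenced genes. Genes of developmental transcription factors, with the HOX clusters foremost, are its textbook targets in cells that do not use them. HOX proteins specify position along the body axis and bind DNA with PBX and MEIS partners, while SOX, forkhead (FOX), T-box (TBX), LIM (LHX) and Iroquois (IRX) factors, SIX4 and SIX5 direct the formation of many organs. In B cells, germinal centre lymphoma lines depend in many cases on EZH2.

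Promoters are shown for SOX12, whose level rose in HT with the smallest p of the members, and for 2 genes of the HOXA cluster, HOXA4 and HOXA6. The HOXA members were higher side by side in HT, while HOXA6 was not higher in SUDHL6. For contrast, TBX19, the member with the lowest CpG ratio, is shown as well. Each window holds the 250 bases before the start of the gene and the 50 after it, 5′ to 3′ on the strand of the gene, from RefSeq on GRCh38.p14, with CpG dinucleotides in capitals. The windows are chr20:325302-325601 on the plus strand for SOX12, chr7:27130708-27131007 on the minus strand for HOXA4, chr7:27147725-27148024 on the minus strand for HOXA6 and chr1:168280627-168280926 on the plus strand for TBX19.
SOX12: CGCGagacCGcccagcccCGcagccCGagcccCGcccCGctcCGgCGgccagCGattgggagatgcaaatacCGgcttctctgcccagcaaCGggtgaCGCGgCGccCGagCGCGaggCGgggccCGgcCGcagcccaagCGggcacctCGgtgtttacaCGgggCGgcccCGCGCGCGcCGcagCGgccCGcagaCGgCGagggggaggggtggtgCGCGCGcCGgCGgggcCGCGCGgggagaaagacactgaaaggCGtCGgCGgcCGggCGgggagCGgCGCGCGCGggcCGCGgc
HOXA4: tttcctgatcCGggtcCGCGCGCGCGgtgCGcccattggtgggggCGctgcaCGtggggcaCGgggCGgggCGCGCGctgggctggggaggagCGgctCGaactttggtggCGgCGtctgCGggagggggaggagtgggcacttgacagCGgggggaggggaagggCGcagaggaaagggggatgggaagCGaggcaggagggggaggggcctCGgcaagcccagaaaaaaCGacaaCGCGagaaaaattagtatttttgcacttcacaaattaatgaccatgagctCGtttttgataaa
HOXA6: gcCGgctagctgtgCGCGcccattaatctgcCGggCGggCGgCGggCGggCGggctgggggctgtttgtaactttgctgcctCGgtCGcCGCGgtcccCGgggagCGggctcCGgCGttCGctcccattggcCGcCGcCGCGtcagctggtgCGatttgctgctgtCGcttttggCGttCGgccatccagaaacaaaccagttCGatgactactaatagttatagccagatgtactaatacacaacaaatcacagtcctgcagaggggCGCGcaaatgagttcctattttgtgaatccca
TBX19: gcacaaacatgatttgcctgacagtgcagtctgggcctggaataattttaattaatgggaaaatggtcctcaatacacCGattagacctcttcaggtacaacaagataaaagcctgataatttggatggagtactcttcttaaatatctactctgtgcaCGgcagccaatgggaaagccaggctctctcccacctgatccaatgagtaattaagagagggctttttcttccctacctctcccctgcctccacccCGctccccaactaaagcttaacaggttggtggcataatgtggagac

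SOX12 had 54 CpG dinucleotides in its 300 bases, HOXA6 had 29, HOXA4 had 27 and TBX19 had 3. The CpG ratio, observed over expected from base composition, was 1.12 for SOX12, 1.06 for HOXA6, 1.03 for HOXA4 and 0.192 for TBX19. RefSeq promoters were matched for 43 of the 58 members, whose median ratio was 0.881, against 0.833 for 9521 promoters of genes with a row in either table and 0.58 for all 27305 promoters. A ratio of 0.6 or more was found for 39 of the 43 members (90.7%), for 80.1% of promoters with a row and for 49% of all promoters. The 29 matched members with both iEZH libraries above both DMSO libraries in HT had a median ratio of 0.887 and the 6 other matched HT members one of 0.853. The median of the members thus lay well above that of all promoters and close to that of promoters with a row, and members that were higher in HT had nearly the same median as the others.

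Motifs were searched on both strands and counted separately, so that matches may overlap. The TATA box letters TATAAA were in 3 of 43 member promoters (6.98%), in 5.73% of promoters of genes with a row and in 12% of all promoters. The letters TGATNNAT, a joint site of HOX and PBX proteins, were in 4 member promoters (9.3%), in 3.32% of promoters with a row and in 7.6% of all promoters. The forkhead letters GTAAACA were in 3 member promoters (6.98%), those of FOXO4, HOXC4 and SOX12, in 2.16% of promoters with a row and in 3.41% of all promoters. These are matches of letters in the window and show no binding.

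Most HT members were higher with iEZH. The 2 iEZH values lay above both DMSO values for 37 of 48 HT members (77.1%), against 32.1% of all rows of 300 bp or more. Both lay below for 2 members (4.17%), against 21% of all rows, and 9 members overlapped. The median difference over the 48 members, iEZH minus DMSO, was 0.27 on the log2(FPKM + 1) scale, against 0.04 over all rows. This scale understates the change of genes at low levels.

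Most members had a mean under 10 FPKM in both lines, and rows at low levels more often had non-overlapping higher values in iEZH whatever the gene. Members were therefore set beside rows of like level. In HT, 16 of 22 members with a mean under 1 FPKM were above (72.7%, against 50.9% of rows at that level). At 1 to 10 FPKM the count was 15 of 18 members (83.3%, against 42.3% of rows), and at 10 FPKM or more it was 6 of 8 (75%, against 20.6%), with 1 of 8, FOXM1, below (12.5%, against 28.3%).

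SUDHL6 members did not stand apart from other rows in this way. The 2 iEZH values lay above both DMSO values for 15 of 43 members (34.9%, against 31.3% of rows), below for 8 (18.6%, against 19.2%), and 20 overlapped. Their median difference was 0.06 on the log2(FPKM + 1) scale, against 0.05 over all rows. Under 1 FPKM, 4 of 10 members were above (40%, against 48.4% of rows), and at 1 to 10 FPKM 10 of 22 (45.5%, against 43.3%). At 10 FPKM or more, 1 of 11 members was above (9.09%, against 19.6%) and 5 were below (45.5%, against 24.9%). The difference between the lines in these shares was not tested.

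**Figure D1:**
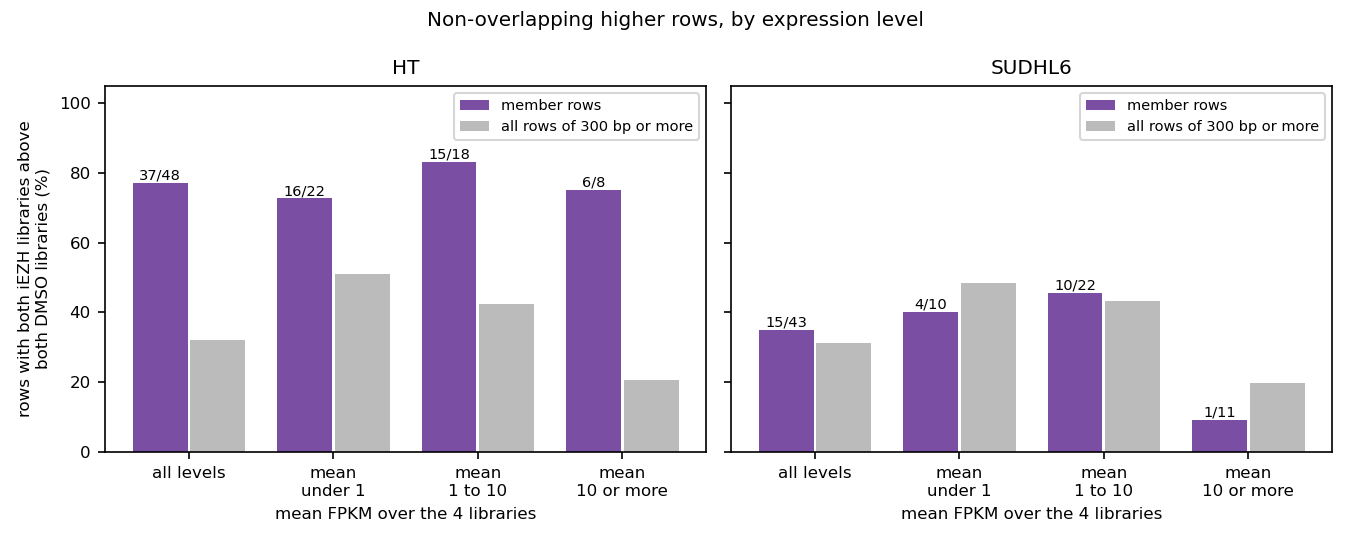
Share of rows (%) with both iEZH libraries above both DMSO libraries, for members (purple, with counts) and all rows of 300 bp or more (grey), at all levels and by mean FPKM over the 4 libraries of a line. HT members stand above the grey bar at each level (77.1% against 32.1% over all levels), whereas SUDHL6 members lie near it (34.9% against 31.3%).

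Single genes were tested with limma on log2(FPKM + 1) over all rows of 300 bp or more that reached 1 FPKM in 2 or more libraries of the line, with Benjamini-Hochberg adjustment and a threshold of 0.05. In HT, 27 members passed this filter, and 5 of them (HOXA3, HOXA5, HOXD8, MEIS3 and FOXA1) did so only through the iEZH libraries. Of all HT rows tested, 5.51% were called, 4.07% as higher and 1.44% as lower. The called members were SOX12 and SOX9, both higher, and 13 of the 27 had an unadjusted p under 0.05, 12 of them higher and 1 lower. The 12 include all 5 that passed the filter only through iEZH, so their direction is not independent of the filter. Among all rows tested, 22.8% had such a p.

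In SUDHL6, 33 members passed the filter, SIX5 only through iEZH. By limma 0 of them were called, and 0.0182% of all rows tested were called. An unadjusted p under 0.05 was found for 4 members, 3 higher, SIX5 among them, and 1 lower, and for 19.7% of all rows tested. Without SUDHL6 iEZH replicate 1, limma called 2 members, PBX3 and SIX4, as higher, beside 4.24% of all rows. With both lines in 1 fit it called 1, FOXM1, as lower, beside 4.43% of all rows.

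SOX proteins share the DNA-binding HMG box of the sex-determining factor SRY. SOX12, of the same subgroup as SOX4, had 35.3 and 34.6 FPKM in HT iEZH libraries, against 20.3 and 19.3 FPKM in HT DMSO libraries. Both iEZH values lay well above both DMSO values, and SOX12 rose by 0.79 on the log2(FPKM + 1) scale (SE 0.13, limma adjusted p = 0.0256), a ratio of means of 1.77. It was the SOX gene with the highest mean in both lines. SUDHL6 had 18.7 and 21.2 FPKM in iEZH, against 21.2 and 19.9 FPKM in DMSO libraries, with overlapping groups and a difference of -0.04 (SE 0.12, limma adjusted p = 0.888).

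SOX9, a regulator of cartilage and testis formation, had 21.4 and 23.9 FPKM in HT iEZH libraries, against 12.1 and 13.8 FPKM in HT DMSO libraries. The groups did not overlap, and SOX9 rose by 0.76 on the log2(FPKM + 1) scale (SE 0.14, limma adjusted p = 0.0348), a ratio of means of 1.75. It has no SUDHL6 row. At 10 FPKM and above, SOX12 and SOX9 were the only SOX genes of HT.

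Other SOX genes of HT were low. SOX8 had 0.299 and 0.312 FPKM in iEZH, against 0.0613 (the lowest value shared by many rows of the HT table, counted as not detected) and 0.149 FPKM in DMSO libraries. SOX7 had 0.22 and 0.261 FPKM in iEZH, against 0.124 and 0.131 FPKM in DMSO libraries. For SOX7, SOX8 and SOX30 all 4 values were under the authors' threshold of 50 reads for quantification (0.305 to 0.345 FPKM in HT), so their levels are uncertain. In SUDHL6, SOX4, which acts in early B cell development, had 9.32 and 10.4 FPKM in iEZH, against 10.9 and 11.8 FPKM in DMSO libraries. The SOX4 groups did not overlap, but the difference of -0.18 did not pass the test (limma adjusted p = 0.472).

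Both calls depended on single libraries and on the rows tested with them. With rows under 300 bp kept in the fit, 0 members were called in HT, with limma adjusted p = 0.0547 for SOX12 and 0.0646 for SOX9. Calls then fell over all HT rows as well, to 0.609% from 5.51%. Without HT DMSO replicate 1, the limma adjusted p was 0.149 for SOX9. Without HT DMSO replicate 2, it was 0.0811 for SOX12. Without HT iEZH replicate 1, limma called 5 members, HOXD8, MEIS3 and SIX4 among them as higher, beside 9.52% of all rows, and HOXD8 and MEIS3 had passed the filter only through iEZH. Without any filter the limma adjusted p was 0.0494 for SOX12 and 0.0599 for SOX9.

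HOXA genes of HT were low and shared 1 order of libraries. HOXA5, which acts in lung formation, had 1.84 and 1.53 FPKM in iEZH, against 0.956 and 0.853 FPKM in DMSO libraries, a difference of 0.49 that did not pass the test (limma adjusted p = 0.089). HOXA3, needed for the thymus and parathyroid in mice, had 1.18 and 1.54 FPKM in iEZH, against 0.777 and 0.702 FPKM in DMSO libraries. Both HOXA5 and HOXA3 passed the filter only through iEZH. HOXA2, HOXA4 and HOXA6 had means of 0.438, 0.652 and 0.906 FPKM in iEZH, against 0.199, 0.334 and 0.558 FPKM in DMSO libraries. All 5 HOXA rows of HT thus had both iEZH values above both DMSO values, with ratios of means between 1.62 for HOXA6 and 2.2 for HOXA2. The same order was found for 32.1% of all HT rows, 50.9% of those under 1 FPKM and 42.3% of those at 1 to 10 FPKM. With quantile normalization 3 of the 5 were above and 0 below, while 25.7% of all HT rows were above.

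SUDHL6 had 7 HOXA rows, with 6 of them above (85.7%, against 31.3% of all rows). Among all SUDHL6 rows, 48.4% of those under 1 FPKM and 43.3% of those at 1 to 10 FPKM were above. HOXA7, the HOX gene with the highest mean in SUDHL6, had 16.8 and 17 FPKM in iEZH, against 14.2 and 15.8 FPKM in DMSO libraries (difference 0.17, limma adjusted p = 0.499). HOXA4, whose promoter is printed above, had 4.75 and 4.93 FPKM in iEZH, against 3.47 and 4.26 FPKM in DMSO libraries. HOXA3 had 2.15 and 2.71 FPKM in iEZH, against 1.71 and 1.9 FPKM in DMSO libraries (difference 0.28, limma adjusted p = 0.337). In all 3 genes both iEZH values lay above both DMSO values. HOXA13, a gene of distal limbs at the far end of the cluster, had 0.363 and 0.613 FPKM in iEZH, against 0.181 and 0.331 FPKM in DMSO libraries. HOXA6 was the exception, with 1.81 and 2.58 FPKM in iEZH and 1.99 and 3.24 FPKM in DMSO libraries, which overlap. The ratios of means in SUDHL6 lay between 0.841 for HOXA6 and 2.44 for HOXA2. With quantile normalization 3 of the 7 were above and 2 (HOXA5 and HOXA6) below, while 23.1% of all SUDHL6 rows were above.

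HOTAIRM1, a noncoding RNA beside HOXA2, was looked up as a neighbour. It had 5.03 and 5.95 FPKM in HT iEZH libraries, against 5.39 and 5.61 FPKM in HT DMSO libraries, which overlap, although those of HOXA2 did not. In SUDHL6 it had 15.2 and 17.2 FPKM in iEZH, against 13.1 and 14.1 FPKM in DMSO libraries, and these groups did not overlap. The HOTAIRM1 row lies at chr7:27135712-27139877 and the HOXA2 row at chr7:27139972-27142394 on hg19, per the authors' tables. Whether reads were counted by strand is not given in the sources used here.

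**Figure D2:**
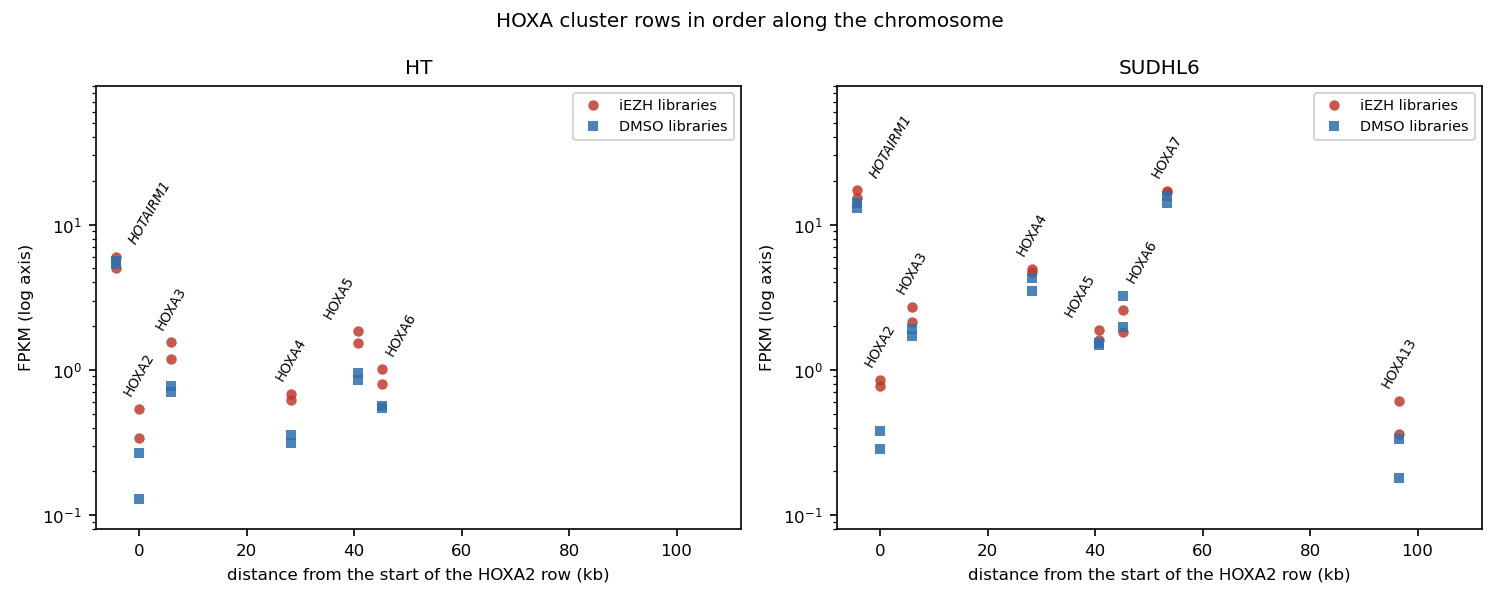
FPKM (log axis) of the HOXA rows and of HOTAIRM1 in each library, by distance in kb from the start of the HOXA2 row, for HT (left) and SUDHL6 (right); iEZH libraries are red circles and DMSO libraries blue squares. In HT the red points of all 5 HOXA rows lie above the blue ones while those of HOTAIRM1 overlap, and in SUDHL6 HOXA6 is the HOXA row that overlaps.

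HOXB, HOXC and HOXD genes were fewer. HOXB7 had 11.1 and 10.2 FPKM in HT iEZH libraries, against 8.89 and 7.33 FPKM in HT DMSO libraries, a difference of 0.36 that did not pass the test (limma adjusted p = 0.215). Its values in SUDHL6 were 4.3 and 3.86 FPKM in iEZH, against 3.89 and 4.99 FPKM in DMSO libraries, which overlap. HOXB4, known for the expansion of blood stem cells, had 0.189 and 0.222 FPKM in HT iEZH libraries and was at the lowest shared value of 0.0613 FPKM in both HT DMSO libraries. In SUDHL6 the same gene was detected in every library, with 3.85 and 3.17 FPKM in iEZH and 3.68 and 2.93 FPKM in DMSO libraries.

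HOXD8 had 1.73 and 2.01 FPKM in HT iEZH libraries, against 0.94 and 0.947 FPKM in HT DMSO libraries. Its groups did not overlap, and its difference of 0.56 (SE 0.13) had a limma adjusted p = 0.0612. HOXD8 passed the filter only through iEZH. HOXC4, which in mice acts on the antibody-diversifying enzyme AID in B cells, had 7.92 and 8.32 FPKM in SUDHL6 iEZH libraries, against 7.36 and 6.92 FPKM in SUDHL6 DMSO libraries. The HOXC4 difference was 0.16 (limma adjusted p = 0.482).

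MEIS and PBX proteins are the homeodomain partners of HOX proteins. MEIS2, the MEIS gene with the highest mean in both lines, had 10.9 and 11.2 FPKM in HT iEZH libraries, against 8.16 and 8.26 FPKM in HT DMSO libraries (difference 0.39, limma adjusted p = 0.136). SUDHL6 libraries had 15.6 and 17.4 FPKM in iEZH, against 18 and 20.7 FPKM in DMSO libraries (difference -0.22, limma adjusted p = 0.432). MEIS2 was thus above in HT and below in SUDHL6.

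MEIS3 had 1.11 and 1.43 FPKM in HT iEZH libraries, against 0.213 and 0.519 FPKM in HT DMSO libraries. Its groups did not overlap, and its difference of 0.74 (SE 0.16) did not pass the test (limma adjusted p = 0.0519). MEIS3 entered the HT test only through the iEZH libraries, so this p is not independent of the filter. In SUDHL6 it had 0.344 and 0.493 FPKM in iEZH, against 0.138 and 0.492 FPKM in DMSO libraries. MEIS3P1, a near copy of MEIS3, was above in HT as well, and how reads were divided between both is uncertain.

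PBX3 had 6.24 and 8.26 FPKM in HT iEZH libraries, against 3.96 and 5.92 FPKM in HT DMSO libraries (difference 0.48, limma adjusted p = 0.23). Its values in SUDHL6 were 8.93 and 11.2 FPKM in iEZH, against 5.18 and 7.05 FPKM in DMSO libraries (difference 0.64, limma adjusted p = 0.144). Neither pair of groups overlapped, yet the spread within each group was wide.

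PBX4 had 1.63 and 1.65 FPKM in HT iEZH libraries, against 1.2 and 1.22 FPKM in HT DMSO libraries. SUDHL6 libraries had 2.3 and 1.79 FPKM in iEZH, against 3 and 2.46 FPKM in DMSO libraries. It was above in HT and below in SUDHL6, and the test was passed in neither line (limma adjusted p = 0.295 in HT and 0.35 in SUDHL6).

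SIX4, a homeodomain factor of muscle and kidney precursors, had the largest difference of any member in either line. It had 3.75 and 5.9 FPKM in HT iEZH libraries, against 1.6 and 2.41 FPKM in HT DMSO libraries, a difference of 0.94 (SE 0.22, limma adjusted p = 0.0604). In SUDHL6 it had 3.24 and 7.16 FPKM in iEZH, against 1.41 and 3.38 FPKM in DMSO libraries, with 1 iEZH value under 1 DMSO value and a difference of 0.86 (SE 0.40, limma adjusted p = 0.326).

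SIX5 had 5.15 and 3.84 FPKM in HT iEZH libraries, against 3.68 and 3.52 FPKM in HT DMSO libraries. Its values in SUDHL6 were 1.36 and 1.53 FPKM in iEZH, against 0.776 and 0.842 FPKM in DMSO libraries, a difference of 0.43 (limma adjusted p = 0.152). SIX5 was above in both lines and passed the SUDHL6 filter only through iEZH. IRX5, the Iroquois gene with a row, had 0.756 and 0.914 FPKM in HT iEZH libraries, against 0.889 and 0.521 FPKM in HT DMSO libraries, which overlap.

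LHX genes encode LIM-homeodomain factors. LHX4, which acts in the pituitary, had 1.42 and 1.41 FPKM in HT iEZH libraries, against 0.897 and 1.28 FPKM in HT DMSO libraries, and 2.95 and 3.17 FPKM in iEZH, against 3.06 and 2.83 FPKM in DMSO libraries of SUDHL6. LHX6, a factor of cortical interneurons, had 0.184 and 0.211 FPKM in HT iEZH libraries and was at or just under the lowest shared value in both HT DMSO libraries. LHX2 had means of 0.281 FPKM in iEZH and 0.0938 FPKM in DMSO libraries of HT, and LHX8 of 0.513 FPKM in iEZH and 0.0932 FPKM in DMSO libraries of SUDHL6. LHX2, LHX6 and LHX8 were above in the line where they have a row.

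**Figure D3:**
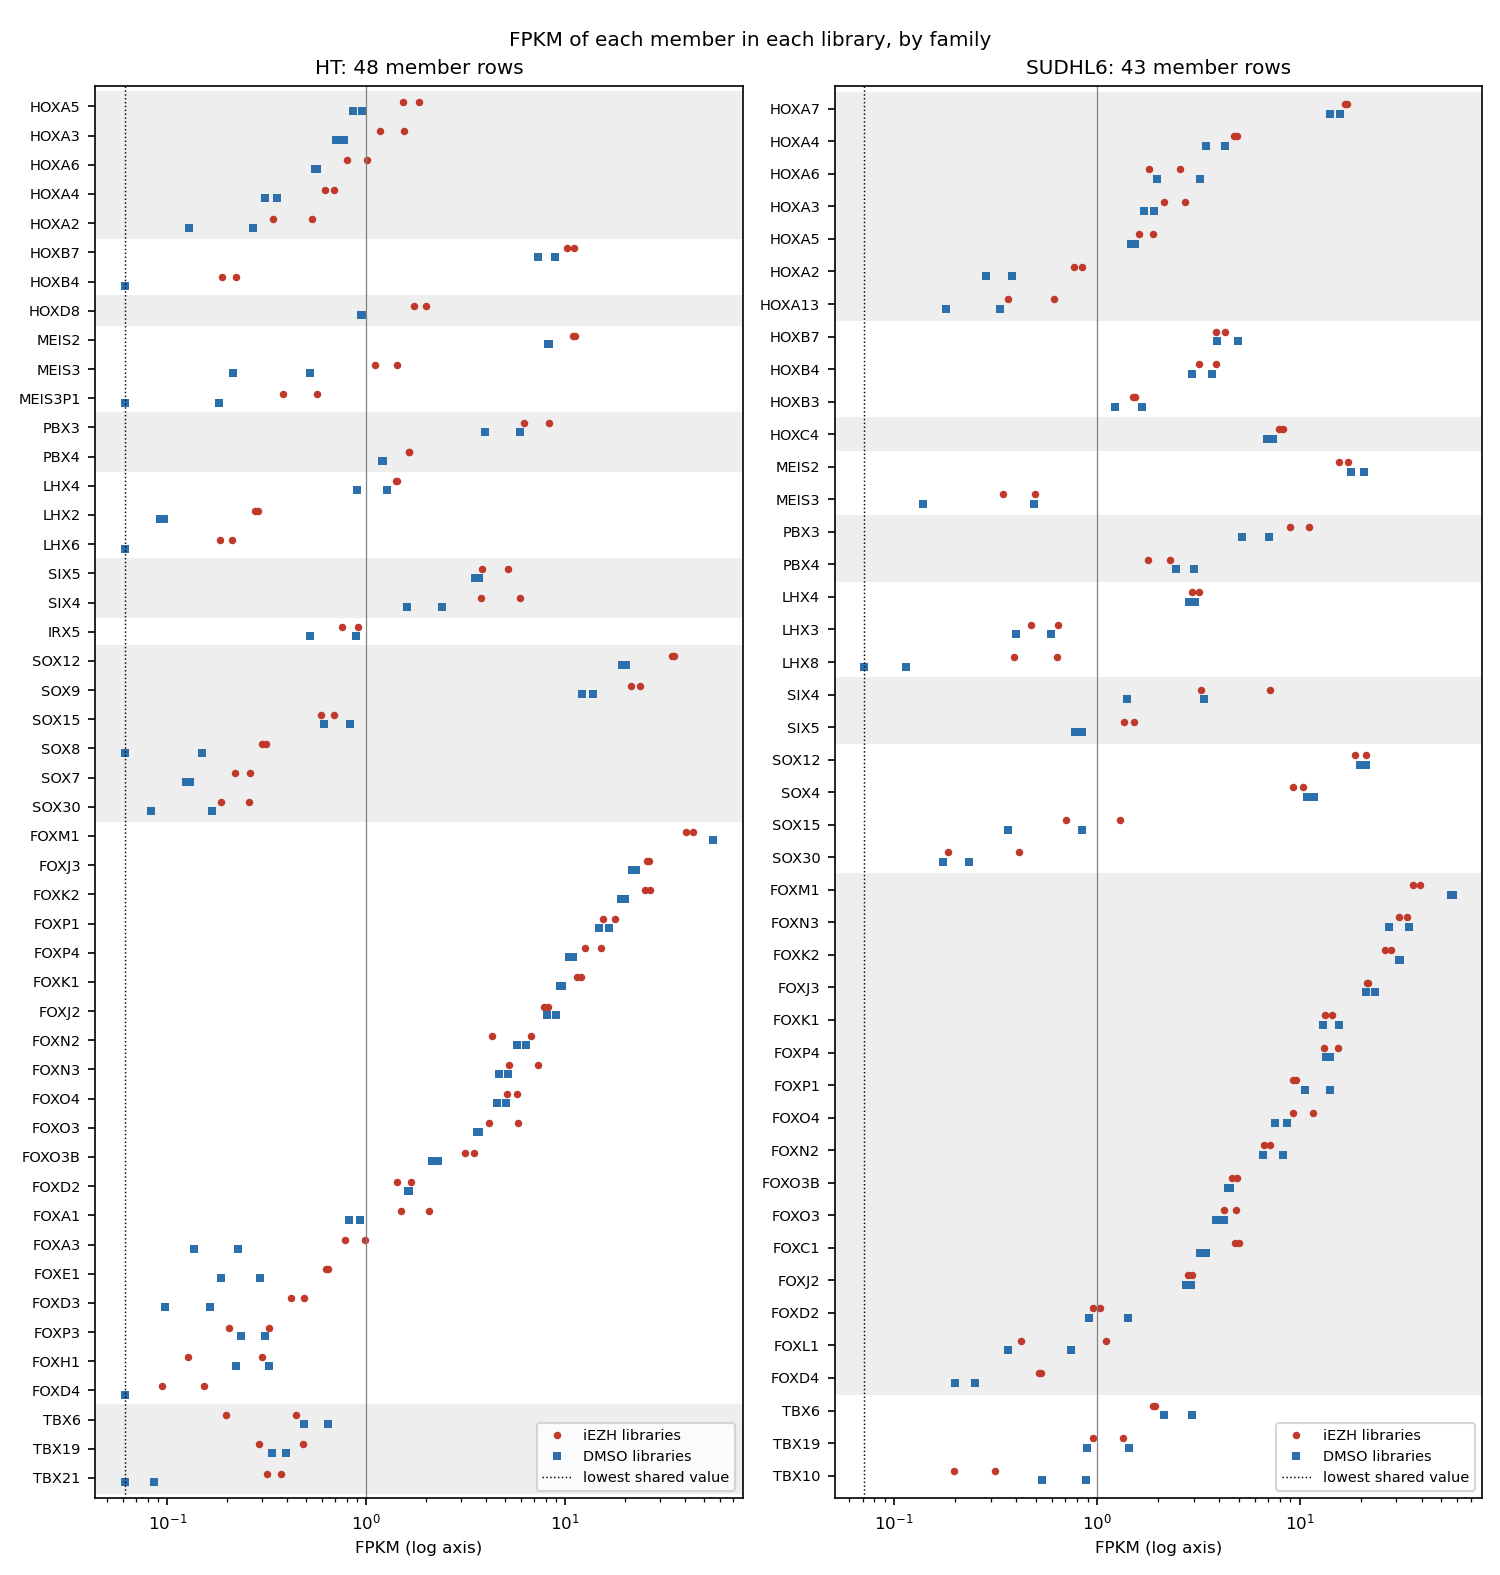
FPKM (log axis) of every member in every library, by family and by mean level within it, for HT (left, 48 rows) and SUDHL6 (right, 43 rows), with iEZH libraries as red circles and DMSO libraries as blue squares. Blue squares on the dotted line are at the lowest shared value (0.0613 FPKM in HT and 0.0712 in SUDHL6), as in both DMSO libraries for HOXB4, LHX6 and FOXD4 in HT.

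Forkhead genes were the largest family, with 20 HT rows and 16 SUDHL6 rows. In HT 13 were above (65%, against 32.1% of all rows), 1 was below (5%, against 21%) and 6 overlapped. In SUDHL6 5 were above (31.2%, against 31.3% of all rows), 3 were below (18.8%, against 19.2%) and 8 overlapped, shares near those of all rows. FOXM1, a driver of mitotic genes in dividing cells, had the highest mean of all members in both lines. It had 44 and 40.5 FPKM in HT iEZH libraries, against 55.2 and 55.4 FPKM in HT DMSO libraries, a difference of -0.38 (SE 0.13, limma adjusted p = 0.133). SUDHL6 libraries had 39.3 and 36.2 FPKM in iEZH, against 56.8 and 55.6 FPKM in DMSO libraries, a difference of -0.56 (SE 0.12, limma adjusted p = 0.1). It was below in both lines, and its row overlaps those of C12orf32 and LOC100507424, from which its reads may not be separable. Rows of FOXN3, FOXO3B, FOXH1, FOXP3, LHX4 and SOX15 also overlap the row of another gene, which makes their values uncertain in the same way.

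FOXA1, which opens chromatin in endoderm and hormone-dependent tissues, had 2.06 and 1.49 FPKM in HT iEZH libraries, against 0.933 and 0.823 FPKM in HT DMSO libraries (difference 0.56, limma adjusted p = 0.0865). FOXA1 passed the filter only through iEZH. Its relative FOXA3 had 0.986 and 0.778 FPKM in iEZH, against 0.228 and 0.136 FPKM in DMSO libraries of HT. FOXA3 did not pass the filter. Without a filter it was called with SOX12 (limma adjusted p = 0.0494 for both), beside 2.49% of all HT rows. Both HT DMSO values of FOXA3 were under the authors' quantification threshold (0.324 and 0.305 FPKM for these libraries), so they are uncertain. FOXD3 of the neural crest and FOXE1 of the thyroid had means of 0.454 and 0.635 FPKM in iEZH, against 0.13 and 0.239 FPKM in DMSO libraries of HT. All 4 were above, and none has a SUDHL6 row.

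FOXK2, a broadly expressed forkhead factor, had 26.8 and 25.1 FPKM in HT iEZH libraries, against 20 and 19 FPKM in HT DMSO libraries (difference 0.40, limma adjusted p = 0.128). In SUDHL6 it had 28.2 and 26.4 FPKM in iEZH, against 30.7 and 31.4 FPKM in DMSO libraries (difference -0.18, limma adjusted p = 0.467). It was another member that was above in HT and below in SUDHL6. FOXC1, of mesoderm and the eye, has a SUDHL6 row, with 4.81 and 5.03 FPKM in iEZH, against 3.44 and 3.23 FPKM in DMSO libraries. FOXC1 groups did not overlap (difference 0.45, SE 0.11, limma adjusted p = 0.12).

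FOXP1, needed for early B cell development in mice, had 9.26 and 9.62 FPKM in SUDHL6 iEZH libraries, against 10.7 and 14.1 FPKM in SUDHL6 DMSO libraries (difference -0.35, limma adjusted p = 0.3). In HT it had 15.5 and 17.9 FPKM in iEZH, against 14.8 and 16.6 FPKM in DMSO libraries, which overlap. FOXO4, a target of insulin and AKT signalling, had 9.3 and 11.6 FPKM in SUDHL6 iEZH libraries, against 7.53 and 8.61 FPKM in SUDHL6 DMSO libraries (difference 0.33, limma adjusted p = 0.297). In HT it had 5.11 and 5.73 FPKM in iEZH, against 4.53 and 5.06 FPKM in DMSO libraries. FOXO3 and its near copy FOXO3B were above in both lines, and reads may be shared between them.

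FOXD4 had 0.154 and 0.0944 FPKM in HT iEZH libraries and was at the lowest shared value in both HT DMSO libraries. Its values in SUDHL6 were 0.519 and 0.531 FPKM in iEZH, against 0.25 and 0.199 FPKM in DMSO libraries, which do not overlap. With HOXB4 and LHX6, it was 1 of 3 HT members at the lowest shared value in both DMSO libraries and above it in both iEZH libraries, against 0.938% of HT rows of 300 bp or more. The reverse was found for 0 HT members (0.0075% of rows), and in SUDHL6 0 members had either order (0.212% of rows undetected in DMSO and 0.063% undetected in iEZH). All 3 HT genes stayed under the 50-read threshold in every HT library, and no fold is given against an undetected group.

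T-box genes had 3 rows in each line. In HT 1 was above (against 32.1% of all rows), 1 was below (against 21%) and 1 overlapped. In SUDHL6 0 were above (against 31.3% of all rows), 2 were below (against 19.2%) and 1 overlapped. TBX6, which acts in somites, had 0.197 and 0.444 FPKM in HT iEZH libraries, against 0.488 and 0.643 FPKM in HT DMSO libraries. SUDHL6 libraries had 1.9 and 1.93 FPKM in iEZH, against 2.14 and 2.95 FPKM in DMSO libraries (difference -0.27, limma adjusted p = 0.398). It was below in both lines. TBX10 was below in SUDHL6, with means of 0.256 FPKM in iEZH and 0.712 FPKM in DMSO libraries. TBX19, whose promoter is printed above, overlapped in both lines.

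TBX21, the T-bet factor of T and NK cells, had 0.372 and 0.316 FPKM in HT iEZH libraries, against 0.0858 and 0.0613 FPKM in HT DMSO libraries. Of 9 T and NK cell markers, 6 had an HT row and 5 of these were above (83.3%, against 32.1% of all rows and 50.9% of rows under 1 FPKM). Their summed level was 2.27 to 3.09 FPKM in iEZH and 1.02 to 1.69 FPKM in DMSO libraries. CD3D and CD3G, which define T cells, were at the lowest shared value in both HT DMSO libraries, with 0.23 and 0.24 FPKM for CD3D and 0.0848 and 0.695 FPKM for CD3G in HT iEZH libraries. CD3E was detected in every HT library, with 0.815 and 1.21 FPKM in iEZH, against 0.544 and 0.393 FPKM in DMSO libraries. NKG7 overlapped, with 0.848 and 0.681 FPKM in iEZH and 0.871 and 0.339 FPKM in DMSO libraries of HT. The part of these markers in the value of TBX21 was not tested. FOXP3, of regulatory T cells, overlapped in HT, and SUDHL6 has no row for TBX21, FOXP3 or any of the 9 markers.

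By family, the homeobox genes (HOX, MEIS, PBX, LHX, IRX5, SIX4 and SIX5) had 18 of 19 HT rows above (94.7%, against 32.1% of all rows) and 0 below (against 21%). All 19 had a mean under 10 FPKM, where 50.9% (under 1 FPKM) and 42.3% (1 to 10 FPKM) of all rows were above. In SUDHL6 10 of 20 homeobox rows were above (50%, against 31.3%) and 2 below (10%, against 19.2%). Of these 20, 5 had a mean under 1 FPKM, where 48.4% of all SUDHL6 rows were above. A further 13 had a mean of 1 to 10 FPKM, where 43.3% were above, so the 50% lay near the shares at like levels. SOX, FOX and TBX genes together had 19 of 29 HT rows above (65.5%) and 2 below (6.9%), and 5 of 23 SUDHL6 rows above (21.7%) and 6 below (26.1%). The HT median difference on the log2(FPKM + 1) scale was 0.31 for HOXA, 0.39 for MEIS, 0.37 for PBX, 0.22 for LHX, 0.19 for SOX and 0.25 for FOX. In SUDHL6 it was 0.24 for HOXA, 0.17 for PBX, 0.04 for FOX, 0.03 for SOX and -0.27 for TBX. With quantile normalization, the medians of IRX (-0.07) and TBX (-0.12) in HT and of HOXB (-0.18), LHX (-0.10), SOX (-0.03) and FOX (-0.04) in SUDHL6 were below 0, having been above it without. Under the same scaling 3 of 5 HOXA rows, 2 of 3 LHX rows and 1 of the SIX4 and SIX5 rows of HT were above. All rows of these genes were above without it. HOXB, HOXD, MEIS and PBX rows of HT all stayed above, and no homeobox row of HT was below. Of all HT rows 25.7% were above under this scaling.

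**Figure D4:**
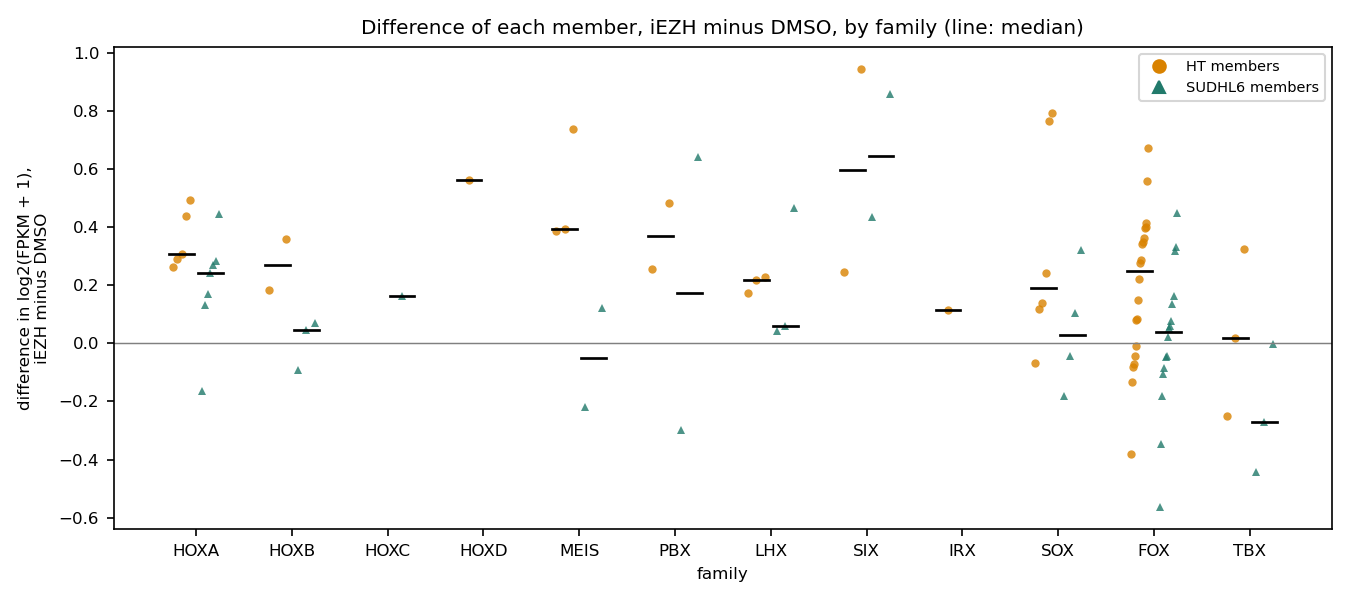
Difference in log2(FPKM + 1), iEZH minus DMSO, of each member by family, in HT (orange circles) and SUDHL6 (green triangles), with the family median as a line. HOX, MEIS, PBX and LHX genes, IRX5, SIX4 and SIX5 of HT all lie above 0, and TBX genes of SUDHL6 do not.

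Of the 33 members with a row in both tables, 10 were above in both lines: HOXA2 to HOXA5, PBX3, SIX5, FOXD4, FOXO3, FOXO3B and FOXO4. That is 30.3% of them, against 15.8% of the rows of 300 bp or more in both tables. All 10 had a mean under 10 FPKM in both lines, where rows were above more often. In HT 50.9% (under 1 FPKM) and 42.3% (1 to 10 FPKM) of all rows were above, and in SUDHL6 48.4% and 43.3%. The share above in both lines among rows of like level was not computed. FOXK2, MEIS2 and PBX4 were above in HT and below in SUDHL6 (2.76% of all rows), and FOXM1 and TBX6 were below in both (9.14% of all rows). A further 12 were above in HT and overlapped in SUDHL6, among them SOX12, SIX4, MEIS3 and HOXB7 (11.2% of all rows). FOXP1 overlapped in HT and was below in SUDHL6 (7.68% of all rows), and 5 overlapped in both (28.7%).

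The difference of the change between lines, SUDHL6 minus HT, was tested in a fit of all 8 libraries for the 23 members that passed the filter in both tables. By limma 0 members were called, against 0.0679% of all rows. An unadjusted p under 0.05 was found for 4 members, all with a smaller difference in SUDHL6, and for 11% of all rows tested. SOX12 had the largest gap, with -0.04 in SUDHL6 and 0.79 in HT, a difference of -0.84 (SE 0.16, limma adjusted p = 0.134). MEIS2 had -0.61 (SE 0.16, limma adjusted p = 0.223) and FOXK2 -0.58 (SE 0.15, limma adjusted p = 0.207). The largest values the other way were 0.19 for SIX5 (SE 0.20), 0.19 for FOXO4 (SE 0.20) and 0.16 for PBX3 (SE 0.31), each smaller than its standard error. A difference between the lines was thus not shown for any single member in this test.

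**Figure D5:**
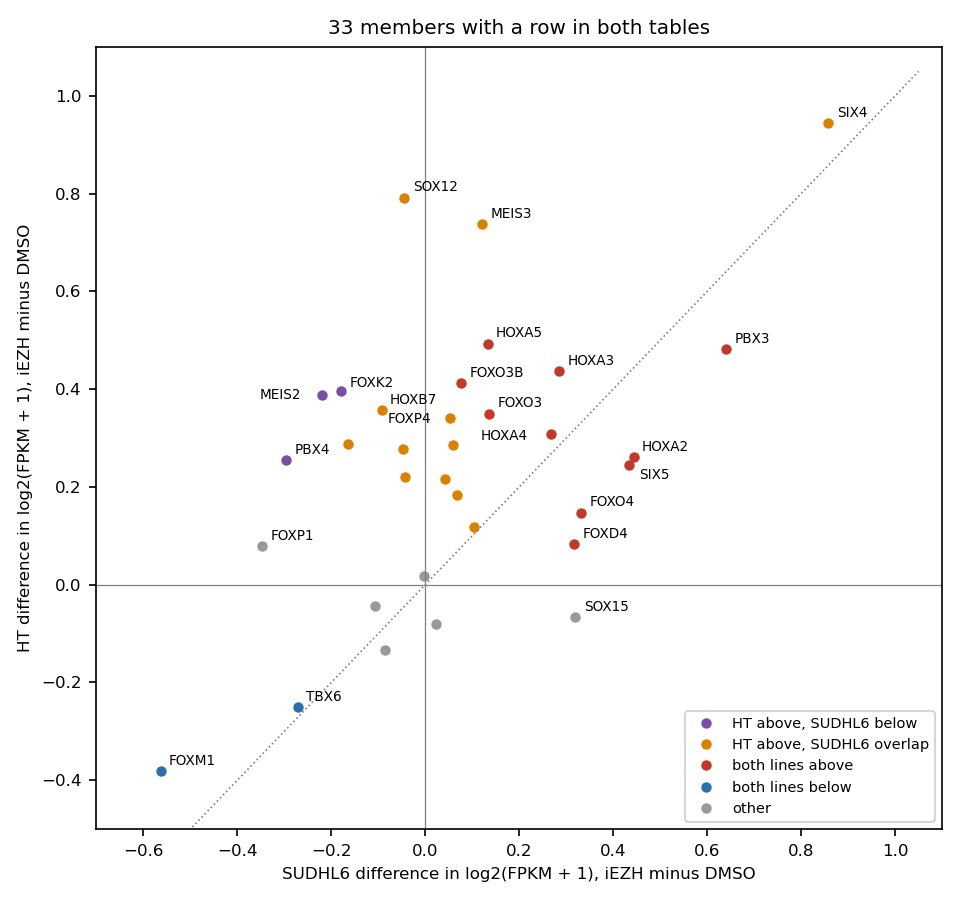
Difference in log2(FPKM + 1), iEZH minus DMSO, in SUDHL6 (x axis) and HT (y axis) for the 33 members with a row in both tables, coloured by the order of the libraries in each line; the dotted line marks equal differences. SOX12 (-0.04 in SUDHL6 and 0.79 in HT) lies farthest from the dotted line, and PBX3 and SIX4 lie nearer to it.

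Beyond the families, 101 other developmental transcription factors were looked up, of which 23 had an HT row. In HT, 4 of the 12 tested were called, all higher (33.3%, against 4.07% of all rows called higher). Of the 23 rows 16 were above (69.6%, against 32.1% of all rows) and 1 was below (4.35%, against 21%), with a median difference of 0.20. Most of the 23 had a mean under 10 FPKM, where 50.9% (under 1 FPKM) and 42.3% (1 to 10 FPKM) of all HT rows were above. PITX1, a factor of the hindlimb and pituitary, had 202.7 and 180.0 FPKM in HT iEZH libraries, against 94.1 and 84.3 FPKM in HT DMSO libraries, and rose by 1.09 (SE 0.14, limma adjusted p = 0.0208). SHOX2 rose by 0.70 (limma adjusted p = 0.0392) and DLX1 by 0.82 (limma adjusted p = 0.0258), and both are homeobox genes of the developing skeleton or brain. DLX2 had 1.72 and 2.3 FPKM in HT iEZH libraries and was at the lowest shared value in both HT DMSO libraries (limma adjusted p = 0.0203). DLX1 and DLX2 passed the filter only through the iEZH libraries, where they were high, so their calls are not independent of the filter. With rows under 300 bp kept, PITX1 (limma adjusted p = 0.0524), DLX1 (0.0547) and SHOX2 (0.0675) were not called. DLX2 stayed called (limma adjusted p = 0.0389), beside 0.609% of all rows.

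SUDHL6 had 19 of these 101 genes, with 6 above (31.6%, against 31.3% of all rows), 6 below (31.6%, against 19.2%) and a median difference of -0.02. Most of the 19 had a mean under 10 FPKM, where 48.4% (under 1 FPKM) and 43.3% (1 to 10 FPKM) of all SUDHL6 rows were above. By limma 0 of the 7 tested were called (against 0.0182% of all rows tested), and 1 had an unadjusted p under 0.05 (against 19.7%). PITX1 had 15.5 and 16 FPKM in SUDHL6 iEZH libraries, against 15.6 and 16.4 FPKM in SUDHL6 DMSO libraries, which overlap.

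Cofactors and chromatin genes that act with HOX proteins or oppose Polycomb had 15 of 20 rows in each line. By limma 0 were called in either line, against 5.51% of all HT rows and 0.0182% of all SUDHL6 rows tested. In each line 1 had an unadjusted p under 0.05, against 22.8% of HT rows and 19.7% of SUDHL6 rows tested. EZH2, the catalytic subunit of PRC2, had 56.2 and 49.4 FPKM in HT iEZH libraries, against 63.6 and 55.9 FPKM in HT DMSO libraries. In SUDHL6 it had 54.9 and 47.5 FPKM in iEZH, against 63.1 and 58.7 FPKM in DMSO libraries, with no overlap and a difference of -0.25 (limma adjusted p = 0.392). EED, a subunit that reads the mark, had 38.2 and 37.7 FPKM in HT iEZH libraries, against 51.4 and 52.2 FPKM in HT DMSO libraries (difference -0.44, limma adjusted p = 0.0897). The scaffold subunit SUZ12 had differences of -0.27 in HT and -0.26 in SUDHL6, EZH1 of -0.01 and 0.01, and none of the 4 PRC2 genes was called by limma in either line (1 in HT, EED, and 0 in SUDHL6 at an unadjusted p under 0.05).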

How the data were processed

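RNA of 8 libraries, 2 per group, was compared within each cell line. The authors deposited 1 FPKM table per line; per the submitters' processing notes, reads were handled with TopHat 1.4.1 and Cufflinks (version not given in the sources used here) on hg19. Per the file headers, the tables keep genes rated detectable, from 10 reads, and quantifiable from 50 reads. Strandedness, annotation and the normalization settings are not given in the sources used here, and counts per gene were not analysed, so counting intervals are not given; with 2 libraries per group their number limits the precision. The tables may have been normalized separately, so levels were not tested between lines. One HT row holding a non-numeric value was dropped.

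Within a line, limma 3.58.1 (eBayes with trend) in R 4.3.3 was fitted to log2(FPKM + 1), two-sided, over rows of 300 bp or more that reached 1 FPKM in 2 or more libraries, and Benjamini-Hochberg adjustment ran over all rows tested. The difference between lines was an interaction term over all 8 libraries. Above and below mean that both iEZH libraries lie beyond both DMSO libraries. The fit was tested on simulated data. No test was made over the members as a group.

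Of the genes that the rule matches, 2 are not reported here and stayed only in the fits over all rows. The members, gene lists and the limit of 300 bp were chosen with earlier results of these data known. Values in all libraries are given for members called or undetected in both libraries of 1 group, the member with the highest mean of each family and line, the 8 largest non-overlapping differences of each line among members reaching 1 FPKM, and the 3 largest differences between lines in each direction; others are given as means, counts or ranges, and a few (such as SOX4, FOXA3, HOXA13 and TBX21) were named for their role after their values were seen. Promoters came from RefSeq tables on GRCh38.p14 and were matched by symbol. Alternatives were pseudocounts, filters, short rows, scalings, the variance model, a joint fit, a replicate block and each library left out.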

Additional observations from a re-analysis of the deposited data

How the results depend on the processing

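Of 1216 alternative values computed for single members, 1127 kept their sign and their side of the threshold, 38 newly passed it and 5 lost it. A further 46 values, of 20 members, changed sign, 0 of them called in either fit; the largest reported difference among these was -0.165, for HOXA6 in SUDHL6. The 2 HT calls became 0 with short rows kept, 1 with both lines in 1 fit, where SOX9 has no SUDHL6 row, and 1 to 5 with 1 library left out; the lowest was without DMSO replicate 1 and the highest without iEZH replicate 1. The 0 SUDHL6 calls became 1 with both lines in 1 fit and 0 to 2 with 1 library left out. Over all HT rows, limma called 615, and 69 with short rows kept.

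The labels share replicate numbers between groups but give them no meaning. Same-numbered libraries deviated together, with a correlation of 0.618 in HT and 0.729 in SUDHL6 across rows, from 1 value per line because each line has 2 pairs. With a replicate block, limma called 16 HT members, 10 SUDHL6 members (FOXC1, FOXM1, FOXO4, FOXP1, HOXA3, HOXA4, PBX3, PBX4, SIX4 and SIX5) and 4 members for the difference between lines (SOX12, MEIS2, FOXK2 and PBX4), beside 3743, 3780 and 1270 of all rows.

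The HT median difference of 0.27 was 0.495 with a pseudocount of 0.1, 0.365 with one of 0.5, 0.35 over rows passing the filter and 0.15 with quantile normalization, where the median of all HT rows was -0.01; with 1 library left out it was 0.24 to 0.29. The count of 37 HT members above was 22 over rows passing the filter, and 29, with 7 below, under quantile normalization, where 25.7% of all rows were above. Under the same scaling 10 SUDHL6 members were above and 16 below, while 23.1% of all SUDHL6 rows were above. The median difference of these members was -0.039, against 0.06 without it, and that of all SUDHL6 rows was -0.005. For neither line was the share of all rows below computed under this scaling. With detection from 0.5 FPKM, 3 SUDHL6 members were undetected in both libraries of 1 group and detected in both of the other. FOXD4 and HOXA2 were detected in iEZH, and TBX10 in DMSO. In HT the 3 were FOXA3, FOXE1 and HOXA4, all detected in iEZH. The share of all rows with such an order at this threshold was not computed. In HT, 29 of 48 members reached the 50-read threshold in every library and 7 in none, and in SUDHL6 35 of 43 did and 0 in none.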
